A study of Mus musculus with 27 samples.

Results

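Retinoic acid, a small signalling molecule made from vitamin A, is produced, degraded and bound within cells by a short list of proteins. The 9 genes described here were chosen by name from the 55487 genes of the table: Stra6, Dhrs3, Aldh1a1, Aldh1a2, Aldh1a3, Cyp26a1, Cyp26b1, Crabp1 and Crabp2. The table held each of them, and each passed the filter on low counts (over 10 counts in 3 or more of 27 libraries). Their exons shared 0 bases with exons of other annotated genes.

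RNA was measured at E14 in 9 C57Bl6/J embryos, from which laser capture took dorsal optic stalk, ventral optic stalk and a separate piece that holds the axons of retinal ganglion cells. The mutants (Smarcc1-DCT-cKO, 5 embryos) carried loxP-flanked alleles of Smarcc1, which encodes part of the core of SWI/SNF, a chromatin remodeller, together with Dct-Cre. Controls were 4 littermates without Dct-Cre, and the line also carried a Z/EG reporter of recombination. Dct-Cre acts in the pigmented epithelium and first in the dorsal stalk, and reaches the rest of the stalk by E14. Ganglion cells, whose axons make up much of the axon piece, are not among the cells in which Dct-Cre is described to act. The labels place control 1 and mutants 1, 2 and 3 in batch A, and the remaining embryos in batch B.

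In the eye, retinol enters cells through the receptor STRA6, is oxidised to retinaldehyde and then, by retinaldehyde dehydrogenases of the ALDH1A family, to retinoic acid. DHRS3 reduces retinaldehyde back to retinol, CYP26 enzymes oxidise retinoic acid to inactive products, and the CRABP proteins carry it in the cytoplasm. Retinoic acid made in the dorsal and ventral optic cup acts largely on the mesenchyme around the eye and on closure of the optic fissure. Nuclear receptors (RAR with RXR) bind it on DNA at pairs of hexamers repeated in the same direction. Retinoic acid is known to induce Dhrs3 and Cyp26a1, a feedback that limits it, and also Stra6.

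Libraries held 10.9 to 34.0 M counts in all, so that 1 read was worth 0.0294 to 0.0917 CPM (counts scaled to a library of 1 M counts). A count of 0 allows up to 3 counts, which corresponds to 0.0883 to 0.275 CPM. Smarcc1 itself, counted over all its exons and hence also over those outside the deleted part, ranged from 75.9 to 289.3 CPM in dorsal controls and from 2.26 to 106.6 CPM in dorsal mutants. Dorsal mutants 1 and 2 (94.9 and 106.6 CPM) lay within the range of the controls. In the ventral stalk the genotypes did not overlap, at 75.7 to 197.9 CPM of Smarcc1 in controls and 14.7 to 64.4 CPM in mutants. Nor did they in axons, at 50.1 to 242.0 CPM in controls and 1.86 to 44.9 CPM in mutants. Of all genes, 0.706% ventrally and 1.04% in axons were lower in every mutant than in every control. Control 3 stood apart among dorsal controls: its 11 mesenchyme genes summed to 12400 CPM and its 9 melanin genes to 43.5 CPM, against 1142 to 4071 CPM and 1300 to 5003 CPM in the other dorsal controls. Its 8 erythroid genes summed to 24340 CPM, against 727.6 to 2847 CPM in the others. In that library 10881 genes had a count, against 13169 to 16266 in the other dorsal controls. The 7 genes of the optic stalk and astrocyte progenitor list were present in every group and summed to 340.6 to 671.8 CPM in dorsal mutants and 934.4 to 1231 CPM in dorsal controls, while the ganglion cell list was at 2.35 CPM in the axon library of mutant 1. Genotypes and regions were compared with edgeR, adjusted by Benjamini-Hochberg over all genes tested, and a gene was called at an adjusted p under 0.05 with an absolute log2 fold change over 0.58.

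Response elements for retinoic acid are known close to the start of some genes of this pathway. The start sites of Cyp26a1 and of the receptor gene Rarb are shown because each holds a direct repeat of the hexamer, and that of Dhrs3 because it was the member whose genotypes did not overlap in a region. Each line gives the 160 bases upstream of the annotated start (RefSeq, GRCm38.p6), 5′ to 3′ on the strand of the gene, with the repeat in capitals.
Cyp26a1, chr19:37697648-37697807, plus strand: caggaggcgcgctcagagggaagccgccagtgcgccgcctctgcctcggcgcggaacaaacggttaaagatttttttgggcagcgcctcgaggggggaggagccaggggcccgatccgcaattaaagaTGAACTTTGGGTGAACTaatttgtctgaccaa
Rarb, chr14:16575477-16575636, minus strand: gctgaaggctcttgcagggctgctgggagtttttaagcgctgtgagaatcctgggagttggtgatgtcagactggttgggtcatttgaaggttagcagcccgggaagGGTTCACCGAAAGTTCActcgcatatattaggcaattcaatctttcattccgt
Dhrs3, chr4:144892667-144892826, plus strand: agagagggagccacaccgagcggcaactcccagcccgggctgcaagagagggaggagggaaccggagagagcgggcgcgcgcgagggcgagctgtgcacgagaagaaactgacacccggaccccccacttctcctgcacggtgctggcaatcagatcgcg
Matches were sought on both strands for any pair of hexamers in the same direction, with 1, 2 or 5 bases between them, where a hexamer was the consensus AGGTCA or had the form AGTTCA found in Cyp26a1, the form GGGTCA with another first base or the form GGTTCA found in Rarb. As 2 of these forms were taken from the known elements of Cyp26a1 and Rarb, that these windows matched was given by the choice of letters. Of 32851 windows that run from 250 bases before to 50 bases after a gene start, 32 (0.0974%) held such a pair 5 bases apart, 88 (0.268%) a pair 2 apart and 73 (0.222%) a pair 1 apart. In Cyp26a1 the pair lay 32 to 16 bases before the start and read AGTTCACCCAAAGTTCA on the opposite strand, and in Rarb it lay 53 to 37 bases before the start and read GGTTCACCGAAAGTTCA on the strand of the gene. Among the other genes of the lists used here, Bco1, a carotene oxygenase gene, held a pair 1 base apart and the globin gene Hbb-y a pair 5 apart. The windows of Dhrs3 (3 starts), Stra6 (4), Aldh1a1 (2), Aldh1a2, Cyp26b1 and Crabp1 (1 each) held none of these spacings, which says only that those letters were not in that window. Aldh1a3 and Crabp2 had no window in the table used. The printed stretch of Dhrs3 was 67.5% G and C with 15 CG pairs, that of Cyp26a1 58.8% with 13, and that of Rarb 49.4% with 5.

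Per kilobase of exon, the scale on which genes can be compared, the binding proteins led in every group. Crabp2 was the highest of the 9 in dorsal controls (56.3 ± 34.6 CPM per kb, SD, n = 4), in dorsal mutants (171.8 ± 86.9, n = 5) and in ventral controls (45.4 ± 27.8, n = 4). Crabp1 was the highest in axons, at 118.5 ± 26.1 CPM per kb in controls and 133.9 ± 72.2 in mutants, and in ventral mutants, where 1 library carried its mean (75.1 ± 154.2). Most neighbours in these orders were closer than their spread: the gap exceeded both SDs for Crabp1 over Dhrs3 in the axons of both genotypes and for Crabp2 over Aldh1a3 in ventral controls. Aldh1a1 and Cyp26b1 were low everywhere, at no more than 1.81 and 1.46 CPM per kb in any group.

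**Figure D1:**
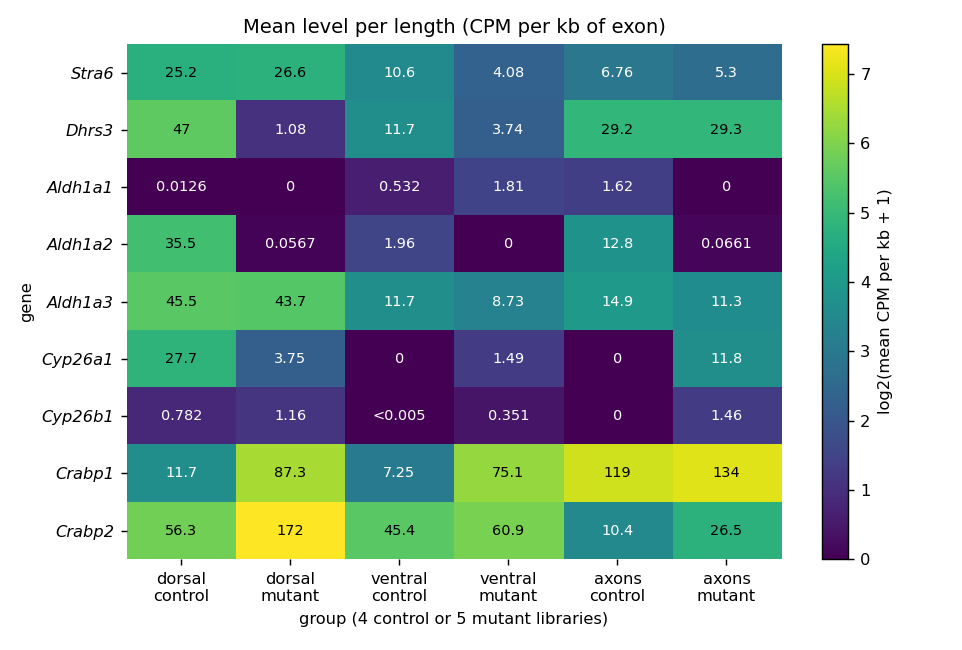
Mean level of each gene per kilobase of exon (CPM per kb, number in each cell, colour on a log2 scale) in the 6 groups of 4 control or 5 mutant libraries. Crabp1 led in axons, Crabp2 in dorsal controls, dorsal mutants and ventral controls, and Dhrs3 stood at 47.0 in dorsal controls against 1.08 in dorsal mutants.

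Between genotypes, edgeR called 0 of the 9 members in the dorsal stalk (0.0124% of 16145 genes tested were called), 0 in the ventral stalk (0.0% of 16139) and 0 in axons (0.0% of 14977). At an unadjusted p under 0.05 the members numbered 1, 0 and 1, against 5.35%, 3.19% and 3.55% of all genes. DESeq2 called 1 (Dhrs3), 0 and 3 (Aldh1a2, Crabp2 and Cyp26b1) members, against 3.3%, 2.12% and 8.23% of genes, and limma voom called 0 in each region, against 0.254%, 0.0372% and 0.3%. On the log2(CPM + 1) scale, 6 of the 9 members had lower means in dorsal mutants than in dorsal controls, 4 in ventral mutants and 4 in mutant axons, where 49.8%, 52.2% and 62.1% of all genes tested did. The median difference of the members was -0.16 dorsally, 0.02 ventrally and 0.16 in axons, and that of all genes 0.01, -0.03 and -0.23. The medians of the fitted log2 fold changes, which depend on the prior count where a group is at 0, were all negative, at -0.86, -0.67 and -1.97 (all genes -0.04, -0.08 and -0.29). In such bulk samples fewer cells of a type and less RNA per cell cannot be told apart.

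**Figure D2:**
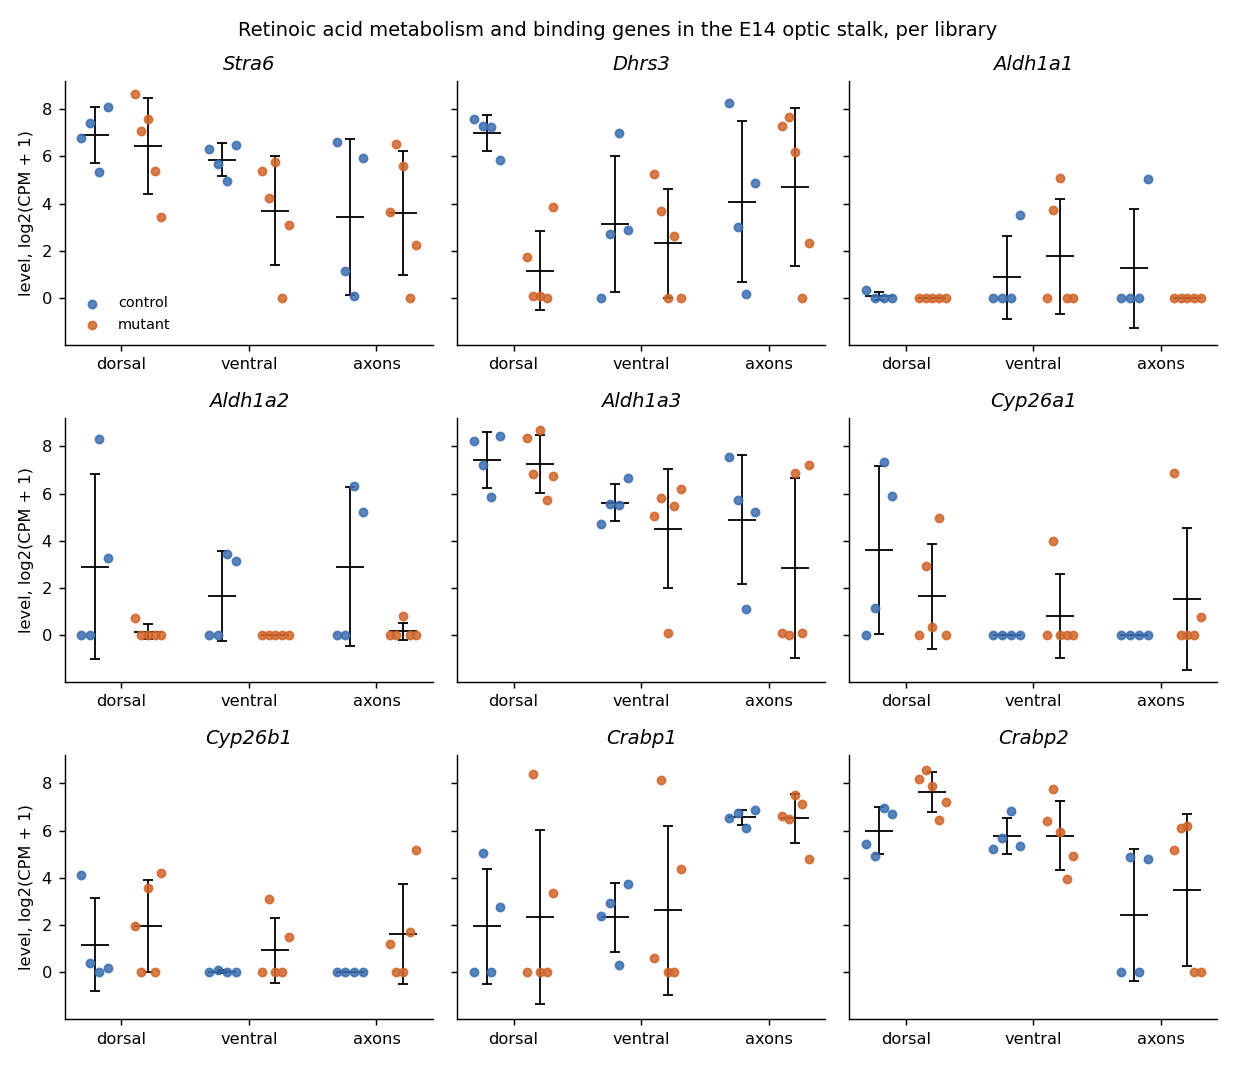
Level of the 9 genes in each library, as log2(CPM + 1), by region, with controls in blue and mutants in orange. Horizontal bars are means and whiskers SDs over 4 control or 5 mutant libraries. The genotypes separated without overlap in 1 panel and region, Dhrs3 in the dorsal stalk.

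Dhrs3 (ENSMUSG00000066026.14, mm10 chr4:144892827-144928209, plus strand), the retinaldehyde reductase that draws substrate away from retinoic acid synthesis, was the member whose genotypes stood farthest apart in mean log2(CPM + 1), and the one without overlap, while the ratio of the means was larger for Aldh1a2, described below. Dorsal controls 1 to 4 had 191.8, 153.2, 148.6 and 56.7 CPM. Dorsal mutants 1 to 5 had 2.29, 0.0596, 0.0707, 0 and 13.4 CPM. Every mutant lay below every control, and 3 of the 5 mutants lay at or near 0. The means were 137.6 ± 57.3 CPM (SD, n = 4) and 3.17 ± 5.82 CPM (n = 5), a 43.4-fold difference. The fitted log2 difference was -5.75 ± 1.66 (SE), with an unadjusted p of 0.00476 and an adjusted p of 0.904 in edgeR's quasi-likelihood test. An exact permutation test (two-sided) of log2(CPM + 1) gave p = 0.0159 and 0.507 after adjustment over all genes, where 4 against 5 embryos allow no p under 0.00794. With the splits that keep the batch composition p was 0.025, the smallest these 40 splits can give. The genotypes did not overlap within either batch, with 191.8 CPM in the single control against a mean of 0.808 CPM in batch A and means of 119.5 against 6.71 CPM in batch B. Of all genes, 1.61% were lower in every dorsal mutant than in every dorsal control. The call depended on the fit: Dhrs3 was called by DESeq2 (adjusted p = 0.00973) and by edgeR with no filter on low counts (5.02e-05), but not by limma voom (0.0849), and over all alternatives the adjusted p ranged from 5.02e-05 to 1.0. With dorsal mutants 1 and 2 left out, the log2 difference was -5.21 (adjusted p = 0.889). Leaving out 1 library at a time gave -9.62 (without mutant 5) to -4.13 (without control 1), and ratios of the means from 34.7 to 51.9, except for 227.0 without mutant 5.

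Markers of mesenchyme moved with Dhrs3 dorsally. The summed level of the 11 mesenchyme genes ranged from 1142 to 12400 CPM in dorsal controls and from 144.0 to 520.6 CPM in dorsal mutants, without overlap. All 11 had a lower fitted level in mutants, 8 of them at an unadjusted p under 0.05 and 0 called. Col1a1, the main fibrillar collagen gene, stood at 29.4 to 938.5 CPM against 0.596 to 10.4 CPM, and Col6a1 was the 1 marker at 0 in all 5 dorsal mutants. The melanin list ran the other way, from 43.5 to 5003 CPM in dorsal controls and from 2989 to 11960 CPM in dorsal mutants. Within a genotype the order of the libraries differed between Dhrs3 and the mesenchyme sum: mutant 5 had the highest value of both among mutants, but mutant 4, with the next highest sum (354.0 CPM), had 0 CPM of Dhrs3, and control 1, with the lowest sum among controls (1142 CPM), had the highest Dhrs3 level. The part of these cells in the Dhrs3 difference was not tested.

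**Figure D3:**
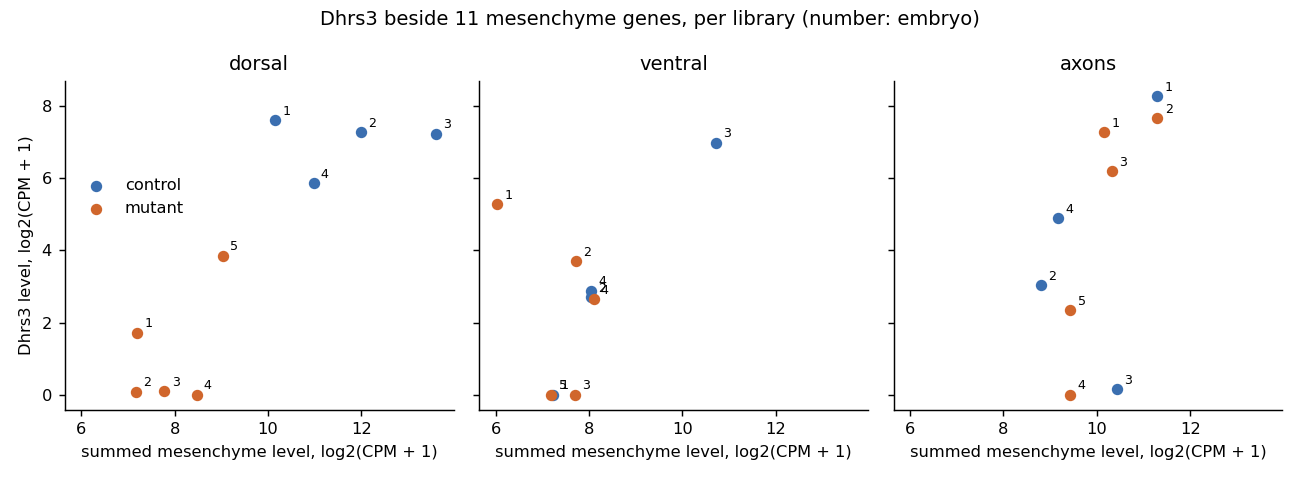
Dhrs3 level against the summed level of 11 mesenchyme genes, both as log2(CPM + 1), for each library, with 1 panel a region and embryos as numbers. Dorsal controls (blue) sit to the upper right of all dorsal mutants (orange). In the axons mutants 1, 2 and 3 reach 71.7 to 199.8 CPM of Dhrs3 and control 1, also of batch A, 306.4 CPM.

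Outside the dorsal stalk Dhrs3 varied from 0 to over 100 CPM within a genotype. Ventral controls 1 to 4 had 0, 5.49, 124.6 and 6.34 CPM, and ventral mutants 1 to 5 had 37.5, 12.0, 0, 5.23 and 0 CPM. Axon controls had 306.4, 7.15, 0.119 and 28.6 CPM, and axon mutants 153.1, 199.8, 71.7, 0 and 4.08 CPM. Over both batches the genotypes overlapped in these regions, with axon means of 85.6 ± 147.7 CPM (SD, n = 4) and 85.8 ± 89.1 CPM (n = 5). The axon libraries of mutants 1, 2 and 3, whose dorsal libraries had at most 2.29 CPM, were among the richest in Dhrs3. These mutants and control 1, the richest, were of batch A, and every axon library of batch B had at most 28.6 CPM. Within batch A the axon mutants (mean 141.6 CPM) lay below the single control (306.4 CPM). In batch B the ranges overlapped, with means of 2.04 CPM in mutants and 11.95 CPM in controls. The mesenchyme sums of mutants 1, 2 and 3 in axons were 1141, 2519 and 1281 CPM, while axon control 3, with 0.119 CPM of Dhrs3, had a sum of 1374 CPM. The genotype effect did not differ past the threshold between dorsal stalk and axons (log2 difference -8.45 ± 4.67, SE, edgeR adjusted p = 0.961) or between dorsal and ventral stalk (-6.80 ± 4.53, adjusted p = 1.0), while DESeq2 called the first (adjusted p = 0.0149). edgeR called 0 members in these differences of genotype effect, where 0.00612% (dorsal against ventral), 0.0122% (dorsal against axons) and 0.0% (ventral against axons) of the 16330 genes were called. None of the 9 had an unadjusted p under 0.05 there, against 2.29%, 4.95% and 3.89% of genes. DESeq2 called 0, 3 (Dhrs3, Cyp26a1 and Cyp26b1) and 1 (Cyp26b1) members, against 5.13%, 13.0% and 13.2% of genes, and limma voom called 0, against 0.0612%, 0.441% and 0.178%.

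Stra6 (ENSMUSG00000032327.14, mm10 chr9:58063788-58153996, plus strand), the membrane receptor through which cells take up retinol from its plasma carrier, was highest in the dorsal stalk. Dorsal controls had 107.8, 170.1, 39.7 and 270.4 CPM and ventral controls 77.8, 50.3, 29.9 and 89.5 CPM. Dorsal mutants had 399.7, 134.7, 189.8, 41.2 and 9.84 CPM and ventral mutants 41.0, 17.6, 52.9, 0 and 7.47 CPM. In each of the 9 embryos the dorsal library exceeded the ventral one, by 1.99 ± 1.65 on the log2(CPM + 1) scale (SD, n = 9). It also exceeded the axon library in 9 of 9 embryos (axon controls 0.0596 to 96.0 CPM, axon mutants 0 to 91.4 CPM). An exact sign-flip permutation test (two-sided, chosen after the data were seen) gave p = 0.00391 for both, the smallest that 9 embryos allow, and an adjusted p of 0.387 against ventral and 0.172 against axons. Over both batches the genotypes overlapped in each region. Ventrally they did not overlap within either batch (1 control against 3 mutants and 3 against 2). The share of all genes that separated in this way was not computed. In batch A the single ventral control had 77.8 CPM against a mutant mean of 37.15 CPM, and in batch B the means were 56.6 and 3.73 CPM. The exact permutation p for the ventral stalk was 0.103 over all splits and 0.125 within batches. Dorsally the mutant mean of Stra6 was above the control in batch A (241.4 against 107.8 CPM) and below it in batch B (25.5 against 160.0 CPM). Ventral Crabp2 also separated within both batches, higher in the mutants of batch A and lower in those of batch B.

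Regions were compared within embryos, with the embryo as a block. That libraries of the same genotype and number came from 1 embryo was read from their numbering and from the design of the study, since no label names the embryo. In controls edgeR called 0 members between dorsal and ventral stalk (0.0% of 16330 genes called), 0 between dorsal stalk and axons (0.704%) and 0 between ventral stalk and axons (0.251%). In mutants it called 0 members in the same order (0.0306%, 0.698% and 0.545% of genes). Members at an unadjusted p under 0.05 numbered 1, 2 and 1 in controls (2.99%, 6.09% and 4.51% of genes) and 1, 2 and 1 in mutants (3.71%, 12.2% and 11.2%). DESeq2 called 1, 3 and 2 members in controls (6.14%, 13.1% and 12.0% of genes) and 1, 5 and 1 in mutants (7.7%, 26.3% and 24.1%). limma voom called 0 members throughout, against 0.208%, 1.59% and 0.784% of genes in controls and 0.484%, 5.14% and 4.91% in mutants. Averaged over all 9 embryos, a contrast added after the data were seen, edgeR called 0 members for dorsal against ventral (0.049% of genes), 1 for dorsal against axons (1.35%) and 0 for ventral against axons (0.857%), with 1, 3 and 1 at an unadjusted p under 0.05 (4.71%, 13.1% and 11.8% of genes). There DESeq2 called 1, 6 and 1 members (7.61%, 25.9% and 24.8% of genes) and limma voom 0, 1 and 1 (Crabp2 in both, against 0.288%, 4.89% and 4.06%). For Stra6 the dorsal against ventral difference in mutants was 3.49 ± 1.63 (SE) on the log2 scale, with an edgeR p of 0.0444 and an adjusted p of 1.0 (DESeq2 0.024). Over all embryos its dorsal against axon difference was 3.15 ± 1.24 (edgeR unadjusted p of 0.0196, adjusted p = 0.272, DESeq2 0.000696), where the median of all genes was 0.84.

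Of the dehydrogenases that make retinoic acid, Aldh1a3 (ENSMUSG00000015134.15, mm10 chr7:66390890-66427517, minus strand) had the highest mean in every group, with a count in 26 of 27 libraries. Single libraries differed. Aldh1a2 exceeded it in dorsal control 3 (313.1 against 56.6 CPM) and in axon controls 3 (79.6 against 1.13 CPM) and 4 (36.3 against 35.9 CPM). Aldh1a1 did so in ventral mutant 3 (32.4 against 0.0589 CPM). Dorsal controls had 294.2, 147.8, 56.6 and 341.5 CPM of Aldh1a3 and ventral controls 25.5, 46.1, 44.6 and 99.97 CPM. Dorsal mutants had 328.7, 111.2, 411.0, 51.2 and 106.5 CPM and ventral mutants 32.0, 54.7, 0.0589, 43.0 and 71.8 CPM. The dorsal level was above the ventral one in each of the 9 embryos, by 2.33 ± 2.64 on the log2(CPM + 1) scale (SD, n = 9; exact sign-flip permutation p = 0.00391, adjusted 0.387). The genotypes had nearly the same dorsal mean, 210.0 ± 131.4 CPM (n = 4) and 201.7 ± 158.0 CPM (n = 5), and their ranges overlapped. In axons the level was 1.13 to 186.8 CPM in controls and 0 to 146.1 CPM in mutants, where 3 of 5 libraries had at most 0.0584 CPM.

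Stra6 and Aldh1a3 were the members with a higher dorsal than ventral level in 9 of 9 embryos, a pattern that 0.343% of all genes shared. The summed melanin and RPE lists were both higher dorsally in 8 of 9 embryos, the exception being control 3, and the optic stalk and astrocyte progenitor list was lower dorsally in 9 of 9. In control 3, whose dorsal RPE list summed to 0.059 CPM, dorsal Stra6 (39.7 CPM) and Aldh1a3 (56.6 CPM) stood beside ventral levels of 29.9 and 44.6 CPM. The part of pigmented cells in the regional differences was not tested.

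**Figure D4:**
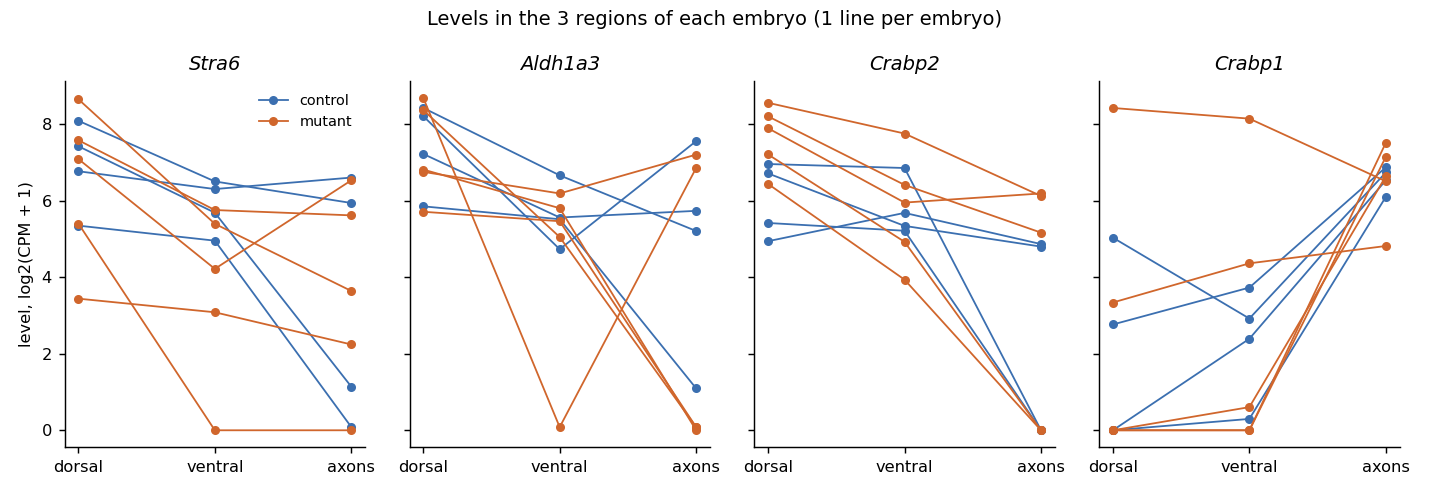
Levels of Stra6, Aldh1a3, Crabp2 and Crabp1 as log2(CPM + 1) in the 3 regions, with 1 line per embryo (controls blue, mutants orange). Stra6 and Aldh1a3 were lower ventrally than dorsally in 9 of 9 lines, and Crabp1 was higher in axons than dorsally in 8 of 9.

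Aldh1a2 (ENSMUSG00000013584.5, mm10 chr9:71215789-71296243, plus strand), the dehydrogenase typical of embryonic mesenchyme, had a count in 8 of 27 libraries. In controls it was present in all 3 regions of embryos 3 and 4 and at 0 in all 3 regions of embryos 1 and 2. Control 3 had 313.1 CPM dorsally, 9.89 CPM ventrally and 79.6 CPM in axons, and control 4 had 8.75, 7.83 and 36.3 CPM. The ratio of the dorsal means (80.5 ± 155.1 CPM in controls, n = 4) rested on these 2 embryos. In mutants 13 of 15 libraries were at 0, and the other two had 0.642 CPM (dorsal, mutant 1) and 0.748 CPM (axons, mutant 3). Because controls 1 and 2 were at 0 the genotypes overlapped (exact permutation p = 0.167 in each region). Both controls with Aldh1a2 were of batch B, and control 3 had the highest mesenchyme sum in the dorsal and ventral groups. Controls with a high sum and 0 CPM of Aldh1a2 were also found, namely control 2 dorsally (4071 CPM) and control 1 in axons (2506 CPM).

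Aldh1a1 (ENSMUSG00000053279.8, mm10 chr19:20492715-20643465, plus strand), the dehydrogenase typical of the dorsal retina, was found in 5 of 27 libraries. Control 4 had 10.5 CPM ventrally and 32.0 CPM in axons, ventral mutants 2 and 3 had 12.3 and 32.4 CPM, and dorsal control 1 had 0.249 CPM. It was thus not found dorsally beyond 0.249 CPM in either genotype, whereas its ventral groups overlapped (exact permutation p = 0.563).

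Of the retinoic acid hydroxylases, Cyp26a1 (ENSMUSG00000024987.6, mm10 chr19:37697798-37701536, plus strand), which carries the direct repeat shown above and is induced by its own substrate, was found in controls in the dorsal stalk alone. Dorsal controls had 0, 1.24, 159.4 and 58.8 CPM, and all 8 ventral and axon control libraries were at 0. Dorsal mutants had 0, 6.50, 0.283, 30.4 and 0 CPM, 1 ventral mutant had 14.8 CPM and 2 axon mutants had 115.8 and 0.71 CPM. In controls the dorsal mean (54.9 ± 74.9 CPM, n = 4) was at least 303-fold higher than in the ventral stalk and at least 342-fold higher than in axons, taking 3 counts per library as the floor. In edgeR the unadjusted p was 0.04 and 0.0392 (adjusted p = 1.0 and 0.777), while DESeq2 gave adjusted values of 0.000115 and 3.61e-05. Over all embryos dorsal against ventral had an unadjusted p of 0.0257 (adjusted p = 1.0, DESeq2 4.95e-05). The dorsal genotypes overlapped (exact permutation p = 0.318), and controls 3 and 4, which carried the level, were those with Aldh1a2. Their axon libraries had 79.6 and 36.3 CPM of Aldh1a2 and 0 CPM of Cyp26a1. Dorsal mutant 4 and axon mutant 1 had 30.4 and 115.8 CPM of Cyp26a1 and 0 CPM of Aldh1a2. Over the 27 libraries Pearson's r of the log2(CPM + 1) levels of both genes was 0.29 and Spearman's rho 0.01. A link between them was not tested.

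Cyp26b1 (ENSMUSG00000063415.12, mm10 chr6:84571414-84593908, minus strand), the other hydroxylase, was found at up to 35.6 CPM in 12 of 27 libraries. Dorsal controls had 16.3, 0.31, 0 and 0.135 CPM and dorsal mutants 2.84, 0, 10.8, 0 and 17.4 CPM. In axons all 4 controls were at 0, and the mutants had 1.32, 0, 0, 2.22 and 35.6 CPM. The mutant axon mean (7.82 ± 15.6 CPM, n = 5) was at least 48.8-fold above the floor of the controls, with an unadjusted p of 0.0304 and an adjusted p of 0.88 in edgeR (DESeq2 0.0365). The groups still overlapped at 0, and the exact permutation test gave p = 0.167 (0.15 within batches). Mutant 5 supplied most of that mean.

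Crabp1 (ENSMUSG00000032291.8, mm10 chr9:54764748-54773110, plus strand), a cytoplasmic carrier of retinoic acid found in neurons and neural crest, was highest in the axon region. Axon controls had 91.4, 105.4, 67.5 and 115.9 CPM and axon mutants 98.5, 89.7, 181.4, 140.4 and 27.1 CPM. Dorsal controls had 0, 31.7, 0 and 5.79 CPM and ventral controls 4.24, 6.56, 0.229 and 12.2 CPM. In controls the axon libraries were above all dorsal and all ventral ones, separations that 1.5% and 1.11% of genes showed in the same direction. Dorsal mutants had 0, 341.1, 0, 0 and 9.11 CPM and ventral mutants 0.521, 280.9, 0, 0 and 19.5 CPM, so that mutant 2 went against the pattern in both regions.

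Within embryos Crabp1 was higher in axons than in the dorsal stalk in 8 of 9 and higher than in the ventral stalk in 8 of 9. In controls the dorsal against axon difference was -6.45 ± 2.79 (SE) on the log2 scale (edgeR unadjusted p of 0.0316, adjusted p = 0.722) and the ventral one -5.54 ± 2.38 (0.0307 and 1.0). In mutants they were -10.49 ± 2.96 (0.00204 and 0.128) and -9.51 ± 2.76 (0.00256 and 0.157). In mutants the ratios of the mean CPM were 1.53 and 1.79 only, with mutant 2 included, and the fitted differences were -1.30 and -1.47 without the embryo block and -2.84 and -1.39 with limma voom. DESeq2 called all 4 (adjusted p from 1.37e-09 to 0.02). Over all 9 embryos Crabp1 was lower in the dorsal stalk than in axons by a called margin, -8.47 ± 2.03 (adjusted p = 0.0346), where the median of all genes was 0.84, and the ventral difference of -7.53 ± 1.83 just missed the threshold (adjusted p = 0.053). The dorsal call was lost under RLE scaling (adjusted p = 0.0539), with limma voom (0.101), without the embryo block (-2.34, 0.473) and in 7 of 9 fits that left out an embryo, being kept without mutant 2 (-9.48, 0.0268) and without mutant 5 (-9.06, 0.0313). Without mutant 5 the ventral difference was called as well (-8.11, adjusted p = 0.0487). The exact sign-flip permutation test gave p = 0.0156 and 0.0117 (adjusted 0.222 and 0.227). The axon genotypes overlapped, at 95.1 ± 20.9 CPM (SD, n = 4) and 107.4 ± 57.9 CPM (n = 5), with an exact permutation p of 0.96. Summed ganglion cell markers were lower in axons than dorsally in 4 of 9 embryos and 2.35 CPM in the axon library of mutant 1, which had 98.5 CPM of Crabp1.

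Crabp2 (ENSMUSG00000004885.5, mm10 chr3:87948666-87953376, plus strand), which hands retinoic acid to its nuclear receptors, had lower means in axons than in either stalk region, the reverse of Crabp1. Axon controls had 0, 28.1, 0 and 26.8 CPM and axon mutants 34.8, 68.5, 71.7, 0 and 0 CPM. Dorsal controls had 41.6, 29.7, 123.0 and 103.6 CPM and dorsal mutants 292.9, 374.7, 236.1, 85.4 and 146.4 CPM. In both genotypes every dorsal library was above every axon library, which 2.91% of genes showed in controls and 3.12% in mutants. Ventral controls (36.0, 50.2, 114.3 and 39.5 CPM) were also all above the control axons, as were 2.69% of genes, whereas ventral mutants (14.3 to 214.3 CPM) overlapped with mutant axons. In axons the mutant mean was 2.55-fold above that of controls, with overlapping ranges (exact permutation p = 0.571). The folds that edgeR and DESeq2 fitted with the batch term were both negative, not called in edgeR and called in DESeq2 (log2 -10.96, adjusted p = 0.00511). In batch A the control was at 0 and all 3 mutants were above it, and in batch B both mutants were at 0 and 2 of 3 controls above it.

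Crabp2 and Stra6 were the members higher dorsally than in axons in 9 of 9 embryos, shared by 1.38% of genes. For Crabp2 the dorsal against axon difference in mutants was 3.89 ± 1.79 (SE) on the log2 scale (edgeR unadjusted p of 0.0416, adjusted p = 0.388, DESeq2 0.0118), and over all embryos 3.39 ± 1.35 (adjusted p = 0.276, DESeq2 0.00206, limma voom 0.0298), against a median of all genes of 0.91 and 0.84. Between the genotypes the dorsal mean was 74.5 ± 45.8 CPM in controls and 227.1 ± 114.9 CPM in mutants, a 3.05-fold difference with overlapping ranges. The exact permutation p was 0.0476 over all splits, 0.1 within batches and 0.622 after adjustment over all genes. Within batch A the 3 mutants (mean 301.2 CPM) were above the single control (41.6 CPM), and within batch B the ranges overlapped (means 85.4 and 115.9 CPM in controls and mutants). Melanin sums were also higher in dorsal mutants (7378 ± 3811 CPM) than in dorsal controls (2778 ± 2487 CPM), and their part in the Crabp2 levels was not tested. Across all 27 permutation tests of members between genotypes, the unadjusted p was under 0.05 for dorsal Dhrs3 and dorsal Crabp2, and the smallest ventral and axon values were 0.103 and 0.167.

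Beyond the 9 members, 4 lists of the pathway were compared between genotypes. edgeR called 0 of 6 receptor genes, 0 of the tested retinol handling and oxidation genes (10 of 15 tested dorsally and ventrally, 7 in axons), 0 of 2 tested genes of other clearance and binding (of 3) and 0 of 8 tested retinoic acid-responsive genes (of 11). On the log2(CPM + 1) scale 7 of the 8 responsive genes had lower means in dorsal mutants (median -0.74, all genes 0.01), 6 in ventral mutants (-0.78, all genes -0.03) and 2 in mutant axons (0.26, all genes -0.23). Of the 6 receptors 4 were lower dorsally (median -0.36), 4 ventrally (-0.75) and 3 in axons (0.33). The retinol handling list had 5 of 10 lower dorsally (0.17), 7 of 10 ventrally (-0.72) and 6 of 7 in axons (-1.28), and the clearance list 1, 0 and 2 of 2 (-1.41, 0.94 and -1.21).

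Tgm2, a transglutaminase gene known to be induced by retinoic acid, had 5.95 to 15.3 CPM in ventral controls and 0 in all 5 ventral mutants, at least a 65.5-fold lower level (edgeR unadjusted p of 0.00731, adjusted p = 0.999). Of all genes, 0.706% were lower in every ventral mutant than in every ventral control. Ttr, the carrier of thyroxine and of the plasma retinol-binding protein and a gene of pigmented epithelium, had 0 to 94.0 CPM in dorsal controls and 113.0 to 536.5 CPM in dorsal mutants, without overlap (log2 difference 3.29 ± 1.10, SE, edgeR unadjusted p of 0.0116, adjusted p = 0.918). Such a separation, higher in every dorsal mutant, was shown by 1.31% of all genes. Between regions, Ttr was higher in the dorsal stalk of mutants than in their axons, where it was at 0 in all 5 libraries (at least 1951-fold, adjusted p = 0.0313). Over all embryos edgeR also called Ttr for dorsal against axons (adjusted p = 0.0092) and Foxc1, a transcription factor gene of the mesenchyme around the eye, for ventral against axons (0.0441).

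The pattern of each member with a mean of at least 10 CPM was compared with those of all other genes past the filter, as Pearson's r of log2(CPM + 1) over the 27 libraries, which share 9 embryos, 3 regions and 2 batches. The values are a description and carry no test. Dhrs3 was most like Cped1 (r = 0.76), Mfap2 (0.73), a component of extracellular microfibrils, and the ephrin receptor gene Epha3 (0.72). Crabp1 was most like Ccnd1 (0.74), the gene of cyclin D1, a pseudogene named Rpl14-ps1 (0.69) and Rpl13 (0.69), a ribosomal protein gene. Crabp2 was most like Clpx (0.88) and Ggh (0.86), Stra6 like Tecr (0.71), Lrp1 (0.71) and Hlcs (0.70), and Aldh1a3 like Arih1 (0.85), Acbd3 (0.84) and Bag5 (0.80). Aldh1a2 was most like Zfp469 (0.85), Ptgs1 (0.79) and Sln (0.79), and Cyp26a1 like Kcnmb2 (0.82), Grm7 (0.75) and Pxylp1 (0.74), of which Pxylp1 had a count in 14 libraries and the other five in 5 to 11. Spearman's rho of the pairs named above ranged from 0.38 (Aldh1a2 and Zfp469) to 0.75 (Dhrs3 and Cped1). For Crabp2 it was 0.42 with Clpx and 0.44 with Ggh, well under their r. Among the members the closest pair was Crabp2 and Stra6 (r = 0.59, Spearman's rho 0.46), and the most opposed was Crabp1 and Crabp2 (r = -0.32, rho -0.27).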

How the data were processed

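The authors made libraries from laser-captured E14 tissue with the Geo-seq protocol, in which cDNA is amplified by PCR without molecular identifiers. The floors therefore cover counting error only, whereas SDs and SEs also hold the spread between libraries. They deposited raw read counts per gene, made with Seq2Science at its default settings (STAR alignment to mm10, HTSeq counting). Tool versions, annotation release and strand setting are not given in the sources used here. Symbols and positions came from GENCODE M21 (55227 of 55487 genes matched). No pair of libraries held identical counts (0 pairs). E12 samples of the study were not analysed here.

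CPM is the count scaled to a library of 1 M counts. The 16330 genes that had over 10 counts in 3 or more of 27 libraries were tested with edgeR 4.0.16 (R 4.3.3): quasi-likelihood F-test, TMM scaling, robust, two-sided. Genotypes were compared on the 9 libraries of a region with batch as a term, and regions and differences of genotype effect in 1 model of 27 libraries with the embryo as a block. Standard errors were derived from the fold change and F. DESeq2 1.42.0 and limma 3.58.1 (voom) were alternatives. Scripts were tested on simulated data. Against a group at 0, a fold was computed from the floor of 3 counts per library. Region libraries of 1 genotype with the same number were taken as 1 embryo, from the numbering and the design of the study, since no label names the embryo. Over 5000 genes the deviations of same-numbered libraries from their group means correlated weakly, at -0.0041 to 0.166 (means 0.0282 to 0.0935), against means of -0.0271 to -0.00692 for different numbers. P-values measure the spread between these embryos.

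All 9 members are given in every group. A member has its log2 difference, SE and p where its unadjusted edgeR p was under 0.05 or the genotypes did not overlap, and other genes of the lists are named where called or, up to 3 per genotype comparison, at an unadjusted p under 0.05. Members, gene lists and tests were chosen with earlier results of these data known. Alternatives were the scaling, the count filter, the tool, the batch term, batch B alone, the block, and each embryo left out. The contrasts over all embryos, the sign-flip test and the fit without dorsal mutants 1 and 2 were chosen after seeing the data. Some results that these rules would name are not reported here.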

Additional observations from a re-analysis of the deposited data

Results flagged for a closer look

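In 10 of the 54 sets of libraries (9 members in 6 groups, of which 48 had any spread) 1 library lay apart from the rest of its group by Dixon's test on log2(CPM + 1), where chance alone flags about 5% of groups. The groups hold many zeros, and the test assumes none. For Aldh1a1 these were dorsal control 1 (0.249 CPM), ventral control 4 (10.5 CPM) and axon control 4 (32.0 CPM), with the other controls of each region at 0. For Aldh1a2 they were dorsal mutant 1 (0.642 CPM) and axon mutant 3 (0.748 CPM), with the other mutants at 0. Aldh1a3 was low in ventral mutant 3 (0.0589 CPM), the deepest library of all, against 32.0 to 71.8 CPM in the other ventral mutants. Cyp26a1 was high in ventral mutant 2 (14.8 CPM, the others at 0) and in axon mutant 1 (115.8 CPM, the others at 0 to 0.71). Cyp26b1 was high in dorsal control 1 (16.3 CPM, the others at 0 to 0.31) and was found in ventral control 2 (0.0763 CPM, the others at 0). The cause of these values was not tested.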

How the results depend on the processing

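The number of calls depended on the tool, and the cause was not tested. Genotype comparisons are listed as dorsal, ventral and axons, and region comparisons and differences of genotype effect as dorsal against ventral, dorsal against axons and ventral against axons. With edgeR 2, 0 and 0 genes were called between genotypes, 0, 115 and 41 between regions in controls, 5, 114 and 89 in mutants, 1, 2 and 0 for the differences of genotype effect, and 8, 221 and 140 between regions over all embryos. DESeq2 called 532, 342 and 1233 genes between genotypes, 1002, 2144 and 1961 between regions in controls, 1258, 4290 and 3941 in mutants, 838, 2121 and 2148 for the differences of genotype effect, and 1242, 4231 and 4058 over all embryos. Its calls among the 9 members numbered 1, 0 and 3 between genotypes, 1, 3 and 2 in controls, 1, 5 and 1 in mutants, 0, 3 and 1 for the differences, and 1, 6 and 1 over all embryos. limma voom called 41, 6 and 45 genes between genotypes, 34, 260 and 128 between regions in controls, 79, 839 and 802 in mutants, 10, 72 and 29 for the differences, and 47, 799 and 663 over all embryos, and 1 member each for dorsal against axons and for ventral against axons over all embryos. Without the count filter edgeR called 101, 8 and 10 genes between genotypes (1 member, dorsal Dhrs3) and 71 for dorsal against axons in controls. RLE scaling gave 62 genes for dorsal against axons in controls and 0 members for that comparison over all embryos, moved the median of all genes by 0.11 to 0.20 on the log2 scale in 4 comparisons with axons, and left 42.0% of the calls for dorsal against axons over all embryos on the higher side, against 26.7%. Between dorsal genotypes 8 genes were called without the batch term, and 0 in batch B alone, with dorsal mutants 1 and 2 left out, or with the replicate number as a block. Numbers shared by a control and a mutant belong to different embryos, whose deviations correlated at -0.0767 to 0.0363, and with that block the dorsal Dhrs3 difference was -8.39. Without the replicate block that joins the regions of an embryo, the calls were 73 (dorsal against axons) and 27 (ventral against axons) in controls, 3 (dorsal against ventral) in mutants, 4 and 1 for the differences of genotype effect that involve axons, and 5 and 342 for dorsal against ventral and dorsal against axons over all embryos, where 0 members were called. Leaving out each embryo in turn gave 0 to 2, 0 and 0 calls between genotypes, where the dorsal calls were 0 without control 1 or any of mutants 1 to 4 and 1 without control 2 or mutant 5. Between regions it gave 0 to 1, 57 to 109 and 13 to 37 calls in controls, with the low values for dorsal against axons without control 1, 2 or 4 (59, 57 and 60) and for ventral against axons without control 1 or 4 (13 and 22), and the 1 call for dorsal against ventral without control 1. In mutants it gave 2 to 8, 65 to 136 and 58 to 105, with the low values for dorsal against ventral without mutant 3, 4 or 5 (2, 3 and 3) and the high one without control 1, for dorsal against axons without mutant 1, 2, 3 or 5 (66, 68, 66 and 65), and for ventral against axons without mutant 1 or 5 (58 each). The differences of genotype effect ranged over 1 to 1, 2 to 3 and 0 to 1 calls (1 without control 2), and regions over all embryos over 5 to 12 (5 without control 4 or mutant 3), 132 to 223 (141, 147 and 132 without control 1, 2 or 4) and 84 to 144 (84 without control 1). Members called numbered 0 to 1 for dorsal against axons and for ventral against axons over all embryos, and 0 to 0 in the other comparisons.

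Of the log2 differences given for single members, 188 of the recomputed values stayed on their side of the threshold, 17 passed it and 10 no longer did, and none changed sign. A read was worth at most 0.0917 CPM, whereas libraries of 1 group could differ from 0 to above 100 CPM in the same member. What made libraries of 1 group differ was not tested.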
